A study of Mus musculus with 3 samples.

Results

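The mitochondrial genome transcripts were taken as all genes whose symbol starts with mt-, after the transcripts listed for the libraries had been matched by identifier to GENCODE release M21. This release holds 37 such genes, of which 13 are protein-coding, 22 are tRNA genes and 2 are rRNA genes. All 13 protein-coding genes were listed, among 35562 genes in all, while the 22 tRNA genes and the 2 rRNA genes were not listed and were not analysed here. Every one of the 13 mRNAs lies on chromosome M of the GRCm38 build, as the label says, and every one is annotated as a single exon.

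RNA was sequenced from 3 mouse myoblast lines, numbered 66, 67 and 72, which form 1 condition (n = 3). The lines carry the genotype Dmdmdx; Pax7-nGFP, in which Dmdmdx is a mutant dystrophin allele and Pax7-nGFP a reporter that puts green fluorescent protein into the nuclei of Pax7-expressing cells, and the dystrophin mutation had been corrected with CRISPR/Cas9 in the induced pluripotent stem cells (iPSCs) from which the cells descend. These iPSCs were injected into mouse blastocysts in which a tamoxifen-inducible Cre driven by Pax7 switches on diphtheria toxin A from the Rosa26 locus, and satellite cells, the stem cells of muscle, were sorted by FACS from muscle of the resulting mouse-mouse chimeras, harvested several weeks or more after birth, and grown in culture into the myoblast lines, which were FACS-purified for sequencing. Chimeras with and without tamoxifen were used in the study, and the labels do not say which treatment, which animal or what exact age lies behind each line, nor whether the iPSCs of the 3 lines were 1 edited clone. Unedited and wild-type libraries were not used here, which leaves no contrast between conditions and hence no p-value. Spreads are between the 3 lines and may in part be technical.

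The libraries were made from poly-A-enriched RNA and held 66972426 to 73274315 estimated counts. Pax7, the transcription factor of satellite cells, stood at 144 ± 9.02 TPM (SD, n = 3), and Myod1, the master regulator of myoblasts, at 690 ± 107 TPM, where TPM, a measure of RNA level, divides counts by effective transcript length and scales the sum of a library to 1000000. All 6 myoblast markers averaged at least 10 TPM. The summed markers of endothelial cells (0.431 to 0.883 TPM over the lines), immune cells (2.94 to 4.29 TPM) and fibro-adipogenic cells (0.394 to 0.511 TPM) were low. Adgre1, Lum and Dpt had 0 counts in every line, which allows up to 3 counts per library, while Cd68 (240, 162 and 258 counts in lines 66, 67 and 72), which made up nearly all of the immune sum, Pdgfra (114, 94.3 and 67.4 counts) and Pecam1 (60.1, 35.1 and 74.1 counts) were detected.

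The mitochondrial genome is a small circle, present in many copies per cell, that encodes core membrane subunits of respiratory complexes I, III and IV and of the ATP synthase (complex V), together with the rRNAs and tRNAs that translate them. Both strands are transcribed as long precursors, and excision of the tRNAs that lie between most of the mRNAs releases the mature transcripts, so the steady level of each mRNA also depends on processing and decay. All other subunits of these complexes are encoded in the nucleus, and muscle, a tissue with a high demand for ATP, relies on both sets.

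The sequences where mRNAs meet show how tightly this genome is packed. The stretches below are reference sequence of GENCODE M21 transcripts (GRCm38), in capitals where both genes share the bases. The first joins mt-Atp8 to mt-Atp6 (chrM:7897-7999, plus strand), whose reading frames overlap by 43 bases, and the next joins mt-Nd4l to mt-Nd4 (chrM:10137-10203, plus strand), which overlap by 7 bases. Each of these pairs is known as a single bicistronic mRNA, although the authors' table lists the genes separately. In the third, mt-Atp6 and mt-Co3 share 1 base (chrM:8577-8637, plus strand).
mt-Atp8/mt-Atp6: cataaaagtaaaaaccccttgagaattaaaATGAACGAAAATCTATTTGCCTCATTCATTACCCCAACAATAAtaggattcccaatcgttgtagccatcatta
mt-Nd4l/mt-Nd4: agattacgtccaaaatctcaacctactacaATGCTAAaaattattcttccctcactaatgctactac
mt-Atp6/mt-Co3: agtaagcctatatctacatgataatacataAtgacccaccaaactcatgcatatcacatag

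mt-Nd5 and mt-Nd6 also overlap, by 14 bases, but on opposite strands, and their last 40 bases are shown each on its own strand with the overlap in capitals (mt-Nd5, chrM:13526-13565, plus strand; mt-Nd6, chrM:13552-13591, minus strand). The capitals of one are the reverse complement of the capitals of the other.
mt-Nd5 end: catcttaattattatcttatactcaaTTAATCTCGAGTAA
mt-Nd6 end: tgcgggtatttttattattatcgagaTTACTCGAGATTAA

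The strands differ in base composition, which is visible in the first 120 bases of the same genes (mt-Nd5, chrM:11742-11861, plus strand; mt-Nd6, chrM:13951-14070, minus strand), with the first codon in capitals. In these stretches mt-Nd5 held 0.833% G and 31.7% C, and mt-Nd6 held 23.3% G and 6.67% C. Over whole transcripts, the 12 mRNAs read from the plus strand, here called heavy-strand mRNAs after the strand that serves as their template, ranged from 5.88% to 16.1% G and from 22.1% to 29.97% C. mt-Nd6, the sole light-strand mRNA, lay outside both ranges with 28.1% G and 5.97% C.
mt-Nd5 start: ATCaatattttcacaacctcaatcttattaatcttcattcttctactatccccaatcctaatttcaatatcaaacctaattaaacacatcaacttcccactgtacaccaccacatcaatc
mt-Nd6 start: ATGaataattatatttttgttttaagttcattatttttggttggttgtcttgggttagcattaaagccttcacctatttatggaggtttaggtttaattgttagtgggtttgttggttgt

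The first and last codons of the members also depart from the nuclear pattern. mt-Nd1 begins with GTG, mt-Nd2 with ATA, mt-Nd3 with ATT and mt-Nd5 with ATC, and the other 9 members begin with ATG. mt-Co3, mt-Nd4 and mt-Cytb end on a lone T (in capitals below) in place of a full stop codon, a known feature of these mRNAs in which the poly-A tail completes the stop codon. The 30 bases shown are chrM:9361-9390, chrM:11515-11544 and chrM:15259-15288, all on the plus strand.
mt-Co3 end: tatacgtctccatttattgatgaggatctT
mt-Nd4 end: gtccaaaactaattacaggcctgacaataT
mt-Cytb end: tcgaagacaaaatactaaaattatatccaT

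The 13 mRNAs were among the most abundant of these myoblasts. Together they took 2.93%, 3.27% and 2.65% of the estimated counts of lines 66, 67 and 72 (2.95% ± 0.313), and, because they are short, 8.01%, 9.23% and 6.94% of TPM (8.06% ± 1.15). In every line 8 of them were among the 20 genes with the highest TPM, and 11 or 12 were among the highest 100. The median member stood at 6508, 6902 and 4980 TPM (6130 ± 1015). Line 67 was the highest and line 72 the lowest in each of these sums and in this median. In bulk RNA, fewer cells of a type and less RNA per cell cannot be told apart, and the number of mitochondrial genomes per cell was not measured.

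Complex I, the NADH dehydrogenase that feeds electrons into the chain, has 7 mitochondrially encoded subunits, and these spanned the largest fold between members. mt-Nd1 (chrM:2751-3707), which lies at the junction of the membrane arm and the peripheral arm, was the highest of them at 6726, 9634 and 6356 TPM in lines 66, 67 and 72 (7572 ± 1795). mt-Nd2 (chrM:3914-4951), a proton-pumping subunit, stood at 4558, 5938 and 3867 TPM (4787 ± 1054). For both genes line 67 stood above the other two lines, which were closer to each other.

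mt-Nd4 (chrM:10167-11544), another proton-pumping subunit, was measured at 3439, 3973 and 3386 TPM (3600 ± 325). mt-Nd4l (chrM:9877-10173), a small membrane subunit whose reading frame runs into that of mt-Nd4, was measured at 3203, 3491 and 3126 TPM (3274 ± 192). These paired genes were the steadiest members of complex I, with 1.17-fold and 1.12-fold between the highest and the lowest line. mt-Nd3 (chrM:9459-9806), a small subunit near the quinone site, was the least steady of all 13 members by this fold, at 2766, 3594 and 2259 TPM (2873 ± 674, 1.59-fold).

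mt-Nd5 (chrM:11742-13565), the longest of the members and the third proton-pumping subunit, was the lowest heavy-strand mRNA by TPM in every line, at 1518, 2141 and 1876 TPM (1845 ± 312). By counts per annotated kilobase it was the lowest in line 66 alone, with mt-Nd4l below it in line 67 and mt-Nd3, mt-Atp8 and mt-Nd4l below it in line 72. It was one of only 2 members that were lowest in line 66, the other being mt-Co3. mt-Nd6 (chrM:13552-14070, minus strand) was the lowest of all members in every line, at 287, 306 and 233 TPM (275 ± 37.6). Its level was 4.34%, 4.30% and 4.54% of the median heavy-strand mRNA of the same line (4.39% ± 0.127), so in TPM this proportion varied less between lines than the level of mt-Nd6 itself. The small SD holds for TPM only: per annotated kilobase the mean was 4.10%, a shift larger than that SD. Where the genes meet at their ends, mt-Nd5 was 5.29, 7.004 and 8.04 times as high as mt-Nd6 in TPM, and this ratio was larger than 1 by far more than its spread. The libraries were stranded, but the strand setting of the quantification is not given in the sources used here, so reads of the heavy-strand RNA opposite mt-Nd6 cannot be told apart from its own with certainty. The RNA was also poly-A-enriched, and any difference between members in capture by their poly-A tails was not tested. The level of mt-Nd6 in these libraries therefore need not be its level in the cells.

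Complex III, which passes electrons from ubiquinol to cytochrome c, has mt-Cytb (chrM:14145-15288), its heme-bearing core, as the sole mitochondrial subunit. Its level was 6698, 6902 and 5298 TPM (6299 ± 873). Lines 66 and 67 were close and line 72 lay below both.

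Complex IV, cytochrome c oxidase, has 3 mitochondrial subunits, and all 3 were among the 4 highest members by mean. mt-Co1 (chrM:5328-6872), which carries the site where oxygen is reduced, was the steadiest of the 13 members at 9401, 9366 and 8943 TPM (9237 ± 255, 1.05-fold). mt-Co2 (chrM:7013-7696), which takes the electron from cytochrome c, stood at 12512, 12030 and 9712 TPM (11418 ± 1497). mt-Co3 (chrM:8607-9390), a core subunit without a redox centre, stood at 6826, 9293 and 7499 TPM (7873 ± 1275). The lines that were high thus differed within 1 complex: line 66 led for mt-Co1 and mt-Co2, by a margin within 1 SD for each, and line 67 for mt-Co3.

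Complex V, the ATP synthase, has mt-Atp6 (chrM:7927-8607), which forms part of the proton channel, and mt-Atp8 (chrM:7766-7969), a small membrane subunit of its stator. mt-Atp6 was the gene with the highest TPM of all genes in each line, at 15625, 18364 and 11836 TPM (15275 ± 3278). mt-Atp8 stood at 6508, 7310 and 4980 TPM (6266 ± 1184). Both genes had the order 67, 66, 72 from high to low.

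**Figure D1:**
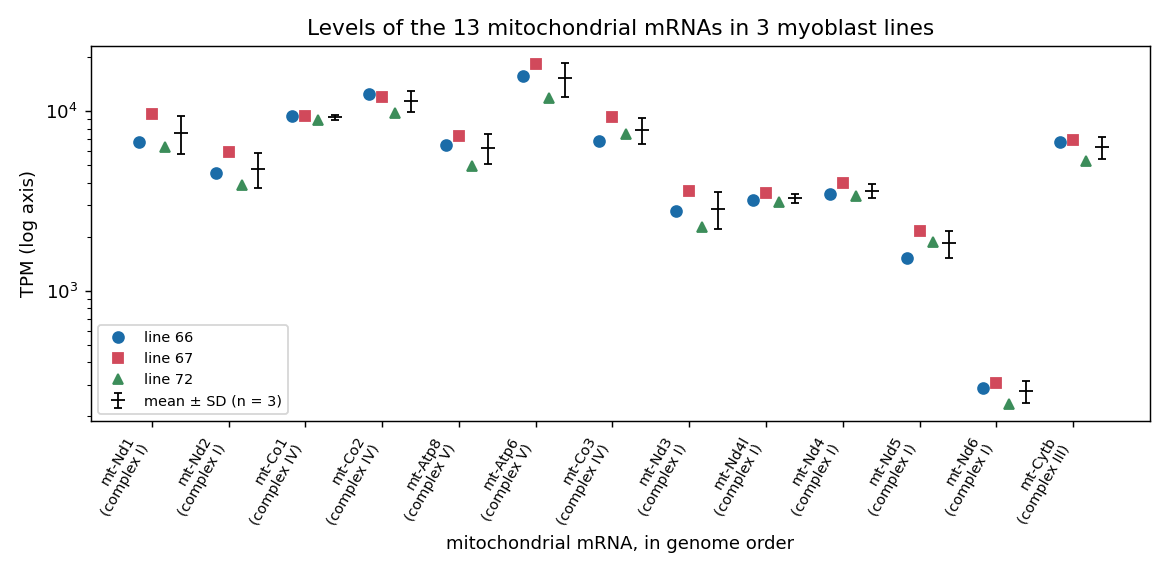
TPM of each mitochondrial mRNA (log axis) in genome order from left to right, with 1 point per line (66, 67, 72) and the mean ± SD of the 3 lines in black. mt-Atp6 is at the top in every line (11836 to 18364 TPM), mt-Co1 has the tightest points (8943 to 9401 TPM), and mt-Nd6 sits far below all others (233 to 306 TPM).

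From high to low mean TPM, the order was mt-Atp6, mt-Co2, mt-Co1, mt-Co3, mt-Nd1, mt-Cytb, mt-Atp8, mt-Nd2, mt-Nd4, mt-Nd4l, mt-Nd3, mt-Nd5 and mt-Nd6. In 4 of the 12 neighbouring pairs the means differed by less than the larger SD of the pair: mt-Co3 and mt-Nd1, mt-Nd1 and mt-Cytb, mt-Cytb and mt-Atp8, and mt-Nd4l and mt-Nd3. The order of mt-Co3 and mt-Nd1, of mt-Cytb and mt-Atp8, and of mt-Nd4l and mt-Nd3 held in 2 of 3 lines, and all other neighbours kept their order in 3 of 3 lines. The margin of mt-Nd4 over mt-Nd4l (326 TPM against an SD of 325) was about as large as the spread. The highest heavy-strand mRNA, mt-Atp6, was 10.3, 8.58 and 6.31 times as high as the lowest, mt-Nd5, in lines 66, 67 and 72 (8.39 ± 1.998).

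The places in this order rest in part on the effective length, an adjusted transcript length by which TPM divides. It was not set by length alone, since in line 66 it was 422 for mt-Co2 (684 bases) and 366 for mt-Atp6 (681 bases). It was 24.8% of the annotated length for mt-Atp8, 40.1% for mt-Nd4l and 48.6% for mt-Nd3, against 77.5% for mt-Co1. When counts were divided by the annotated length instead, in the order of the means mt-Atp8 went from place 7 to place 9 and mt-Nd4l from place 10 to place 12, mt-Co1 from place 3 to place 2, and mt-Atp6 and mt-Nd6 remained first and last. In line 72 alone, mt-Co1 (8874 counts per kilobase, scaled to sum to 1000000 over all genes) was then above mt-Atp6 (8282). Counts themselves did not limit these comparisons, since the lowest member, mt-Nd6, had 2868 to 3948 estimated counts per line and a counting error of at most 1.87%, while mt-Co1 had 481675 to 537199.

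Levels had at most a loose relation to the position along the heavy-strand precursor. Across the 12 heavy-strand mRNAs, Spearman's rho of mean TPM with start position was -0.50, with length -0.08 and with GC content 0.29. With counts per annotated kilobase in place of TPM the values were -0.41, 0.17 and 0.26, so the sign for length changed. These are descriptions over genes of the same 3 libraries, which are not independent. mt-Cytb, the last mRNA on this strand, stood at 6299 TPM, with a higher mean than 6 of the other heavy-strand mRNAs.

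The members differed between lines by amounts that were modest for single genes. The highest and the lowest line were over 1.5-fold apart in TPM for 4 of 13 members (mt-Nd1 1.52-fold, mt-Nd2 1.54-fold, mt-Atp6 1.55-fold and mt-Nd3 1.59-fold), beside 9.79% of the 8428 genes that averaged at least 10 TPM. All 4 were only just past that fold, and with line 67 or line 72 left out the count was 0. No member was over 2-fold apart (2.47% of all genes were).

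The direction was more uniform than the size. Line 67 was the highest line for 11 of 13 members (26.2% of all 8428 genes), the exceptions being mt-Co1 and mt-Co2, which were highest in line 66 (28.1% of all genes). Line 72 was the highest for 0 members (45.7% of all genes). Line 72 was the lowest for 11 of 13 members (19.6% of all genes), the exceptions being mt-Co3 and mt-Nd5, which were lowest in line 66 (47.7% of all genes), and line 67 was the lowest for 0 members (32.7%). Highest in line 67 and lowest in line 72 held for 9 members (7.82% of all genes). The members are parts of the same precursors and share each library, so their counts are not independent of one another.

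When each line was set against the average of the others as a log2 ratio, on the log2(TPM + 1) scale, the median member stood at 0.34 in line 67, with all 13 members above 0 (0.03 to 0.56). In line 72 the median was -0.34, with 1 member, mt-Nd5, above 0 (-0.52 to 0.06). In line 66 it was -0.04, with 6 members above 0 (-0.40 to 0.21). Over all 8428 genes the medians were -0.01, 0.06 and -0.05 in lines 67, 72 and 66. With 1 library per line, a difference between lines has no replicate check.

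**Figure D2:**
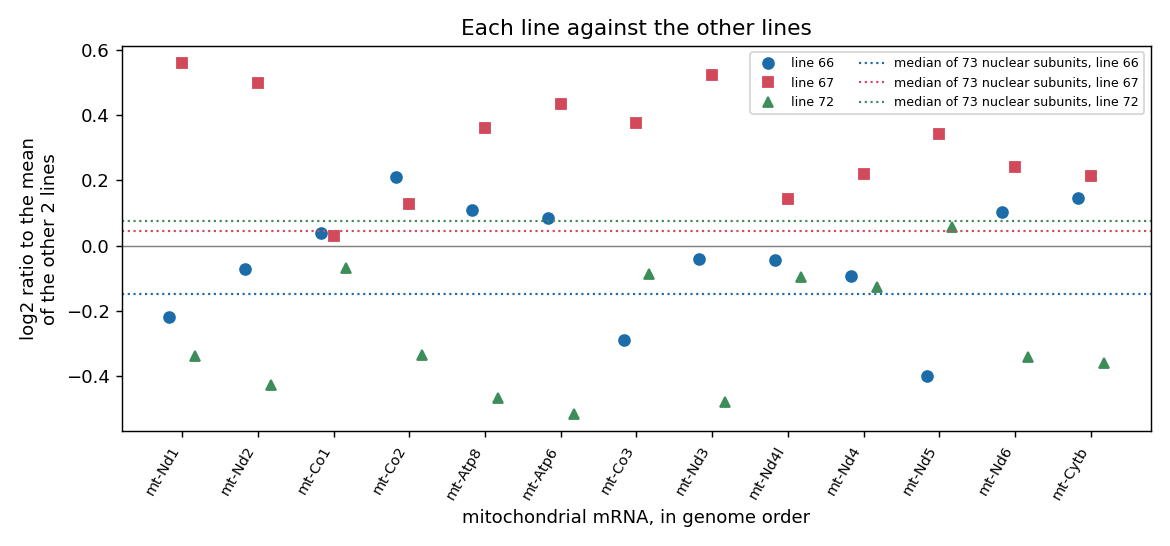
Log2 ratio of each mitochondrial mRNA in 1 line to the average of the other lines (vertical axis, log2(TPM + 1) scale), in genome order, with dotted lines at the median of 73 nuclear subunits in each line. All 13 points of line 67 lie above 0 and all points of line 72 except mt-Nd5 lie below 0, while the nuclear medians stay between -0.15 and 0.08.

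Genes of differentiating muscle also varied between the lines, in another order. Of 10 genes of differentiating muscle, 9 averaged at least 10 TPM, and all 9 were over 1.5-fold apart (9.79% of all genes), with line 66 lowest (47.7% of all genes) and line 72 highest (45.7%), the most common places of both lines over all genes. Their summed level was 1832, 2403 and 3257 TPM in lines 66, 67 and 72, and Myog, the myogenin gene that marks entry into differentiation, stood at 168, 222 and 310 TPM. None of the 10 was at 0. The members were highest in line 67, which was the middle line of this list, and lowest in line 72, its highest line; the part of these genes in the mitochondrial levels was not tested.

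Some pairs of members kept their ratio across lines far better than others. Over all 78 pairs, the coefficient of variation (CV) of the TPM ratio across the 3 lines had a median of 12.9% and ran from 1.77% to 26.1%. The ratio of mt-Atp8 to mt-Atp6 was 0.417, 0.398 and 0.421 in TPM (CV 2.93%), and that of mt-Nd4l to mt-Nd4 was 0.931, 0.879 and 0.923 (CV 3.11%). These bicistronic pairs, whose joins are printed above, were numbers 3 and 4 of the 78 from the steadiest in TPM. In estimated counts, where no effective length enters, they had the lowest CVs, 1.09% and 2.19%, against a median of 12.97%. Next came mt-Nd6 with mt-Atp6 (2.28%) and with mt-Atp8 (2.35%), which are read from opposite strands, and mt-Co2 with mt-Cytb (2.75%), so a steady ratio was not particular to the bicistronic pairs.

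Adjacent mRNAs had both steady and unsteady ratios. mt-Atp6 and mt-Co3, which share 1 base with no tRNA between them, had a CV of 18.3% in TPM, which was number 64 of 78 from the steadiest. mt-Nd5 and mt-Nd6, which overlap on opposite strands, had a CV of 20.5% (number 71 of 78). mt-Nd6 and mt-Cytb, adjacent on opposite strands with 1 tRNA between them, had the lowest CV in TPM (1.77%), although in counts it was 5.79%. mt-Nd1 and mt-Nd2, with 3 tRNAs between them, had a CV of 5.79% in TPM (number 10 of 78) and 4.56% in counts (number 6). The 3 least steady pairs in TPM all held mt-Nd5, with mt-Co2 (26.1%), mt-Atp6 (23.8%) and mt-Atp8 (23.7%). The TPM ratio moved by over 1.5-fold between lines in 7 of the 78 pairs.

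**Figure D3:**
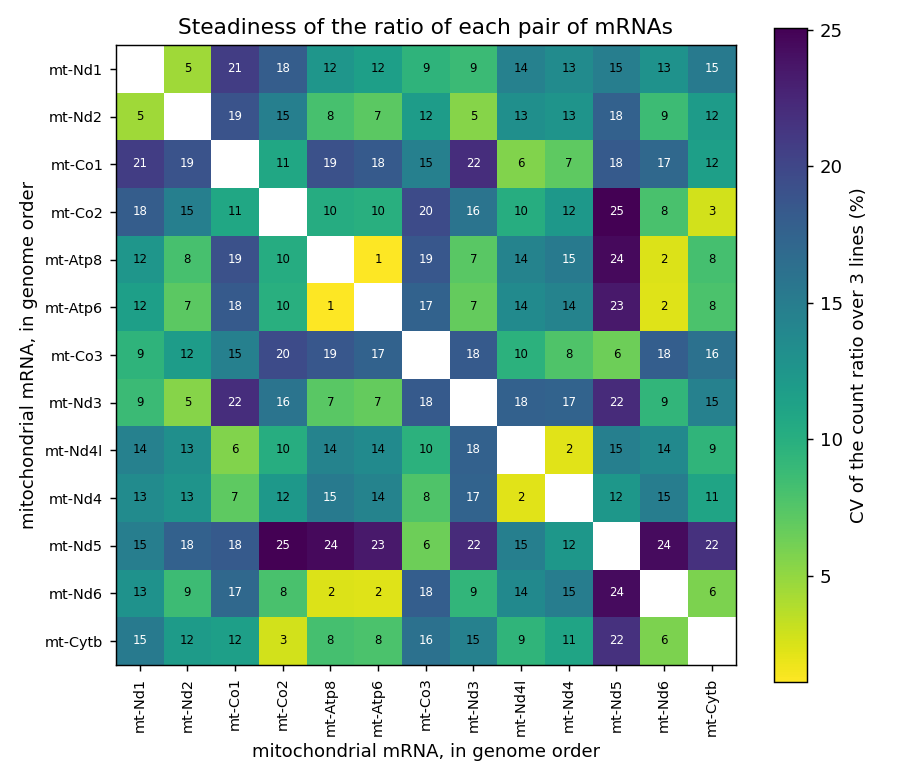
CV in percent of the ratio of estimated counts of each pair of mitochondrial mRNAs across the 3 lines, with the genes in genome order on both axes and the rounded CV written in each cell. The steadiest cells are mt-Atp8 with mt-Atp6 (1.09%) and mt-Nd4l with mt-Nd4 (2.19%), and the row of mt-Nd5 holds many of the darkest cells.

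The overlaps hold a small share of the sequence of these genes. Of the 31-base words of mt-Atp8, 7.47% also occur in mt-Atp6, and 1.997% of those of mt-Atp6 occur in mt-Atp8, while every word of the other 11 members was found in no other listed gene. No member shared a word with a listed nuclear gene. Nuclear copies of mitochondrial DNA that were not listed are another matter: 22 pseudogene transcripts of GENCODE M21 shared words with 12 of the 13 members, all but mt-Nd1. Of these, 7 stand in a row on chromosome 1 (chr1:24611535-24616197, GRCm38) and shared at least 97.2% of their words with mt-Nd4, mt-Nd4l, mt-Nd3, mt-Co3, mt-Atp6 and mt-Atp8, mt-Co2 or mt-Co1. Any reads from such copies would be counted with the members and cannot be told apart from them here.

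The nuclear partners of these mRNAs were far lower, and their pooled median was not lowest in line 72. The median of 73 nuclear subunits of complexes I, III, IV and V was 249, 265 and 277 TPM in lines 66, 67 and 72, and the median member was 26.2, 26.1 and 18.0 times as high (23.4 ± 4.70). By complex, the median mitochondrial mRNA was 19.2, 20.2 and 17.8 times the median nuclear subunit for complex I, 16.1, 18.0 and 15.1 times for complex III, 18.2, 15.2 and 14.0 times for complex IV, and 21.8, 22.2 and 13.9 times for complex V. In each complex the ratio was lowest in line 72. By the mean over lines, mt-Nd6, at 275 TPM, was the sole member in the range of the nuclear subunits, and in line 66 mt-Nd5 (1518 TPM) was also below the highest of them, Atp5b (1855 TPM).

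None of the 71 nuclear subunits that averaged at least 10 TPM was over 1.5-fold apart between lines, against 9.79% of all genes. Their median log2 ratio was -0.15, 0.04 and 0.08 in lines 66, 67 and 72, against -0.05, -0.01 and 0.06 over all 8428 genes. Line 72, the lowest for most mitochondrial mRNAs, was the highest of the 3 by these medians, as it was over all genes. In complex III the measures disagreed, with the median nuclear level lowest in line 72 (415, 385 and 351 TPM) and the summed nuclear level highest there (3214, 3330 and 3378 TPM). This median fell on Uqcrb in line 66 and on Uqcrq in lines 67 and 72. Uqcrq lies on chromosome 11, and the part of the shift of that chromosome, given below, was not tested. The highest and lowest nuclear subunits by mean were Ndufab1 (522 TPM), the acyl carrier protein, and Ndufb3 (75.7 TPM) for complex I, Uqcrh (543 TPM) and Uqcrfs1 (149 TPM), the Rieske iron-sulfur protein, for complex III, Cox4i1 (937 TPM) and Cox7a1 (6.51 TPM), an isoform of mature muscle, for complex IV, and Atp5b (1752 TPM), the catalytic beta subunit, and Atp5e (266 TPM) for complex V. Among subunits that averaged at least 10 TPM, the least even between lines were Ndufa5 (1.29-fold), Uqcrc2 (1.32-fold), Ndufa4 (1.40-fold) and Atp5l (1.31-fold). Ndufa5 and Ndufa4 lie on chromosome 6 and were highest in line 72. Genes of this chromosome stood apart from all genes by a median log2 ratio of -0.11, -0.05 and 0.15 in lines 66, 67 and 72. The part of this shift in their values was not tested. With a mean below 10 TPM, Cox6a2, a muscle isoform of complex IV, stood at 4.29, 8.66 and 11.8 TPM (129, 241 and 340 counts, 2.75-fold), while Cox7a1 stood at 5.66, 7.64 and 6.23 TPM, so the line orders of these muscle isoforms differed. All 4 genes of complex II, which has no mitochondrial subunit, were within 1.5-fold, from Sdhc (288 TPM) to Sdhb (181 TPM), and Sdha was the least even at 1.24-fold.

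**Figure D4:**
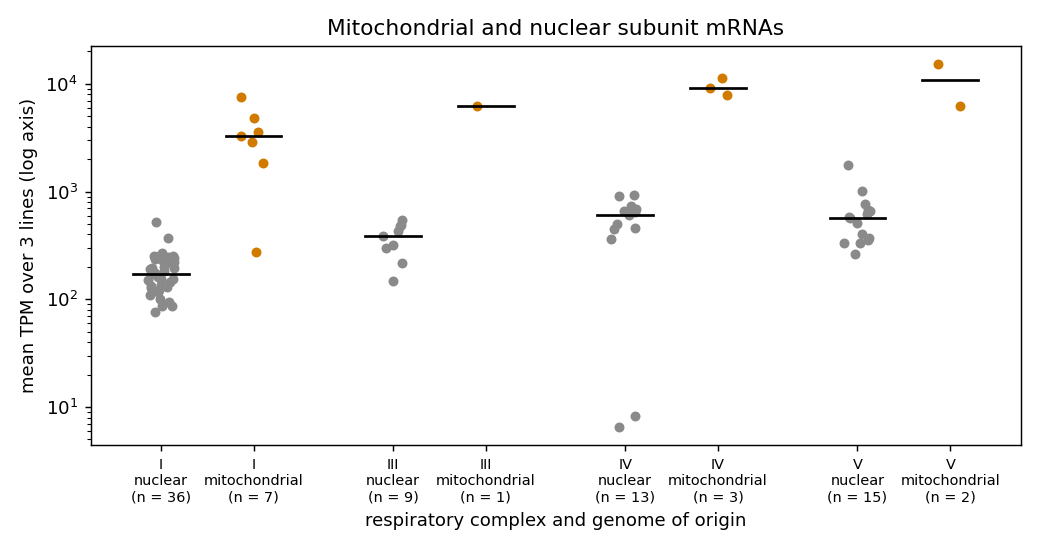
Mean TPM over the 3 lines (log axis) of nuclear (grey) and mitochondrial (orange) subunits of complexes I, III, IV and V, with 1 point per gene and a black bar at the median of each set. Apart from mt-Nd6 in complex I (275 TPM), every mitochondrial mean lies above every nuclear mean of all 4 complexes; the highest nuclear point is Atp5b (1752 TPM) and the next lowest mitochondrial one is mt-Nd5 (1845 TPM).

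The share of each complex within the mitochondrial TPM differed by at most 1.15-fold between lines. Complex IV took 35.9%, 33.2% and 37.7% of it, complex I 28.1%, 31.5% and 30.4%, complex V 27.6%, 27.8% and 24.2%, and complex III 8.37%, 7.47% and 7.64%. Complex V, with the largest fold between lines in summed TPM (1.53-fold), was lowest in line 72.

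The nuclear genes that transcribe the mitochondrial genome were expressed at low to moderate levels. Of 10 such genes, 7 averaged at least 10 TPM and 1 of these was over 1.5-fold apart (9.79% of all genes), Polrmt, the mitochondrial RNA polymerase. It stood at 30.6, 41.2 and 21.4 TPM in lines 66, 67 and 72 (31.1 ± 9.87, 1.92-fold), with line 67 highest and line 72 lowest (7.82% of all genes), the order of most members. Tfam, which packages the mitochondrial genome and activates its promoters, was even at 102, 91.3 and 97.8 TPM (97.0 ± 5.37), and Mterf1b, a termination factor, was the lowest of the list at 1.88 TPM.

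Of 20 genes of mitochondrial RNA processing and stability, 18 averaged at least 10 TPM and 1 was over 1.5-fold apart (9.79% of all genes), Pnpt1, which encodes polynucleotide phosphorylase, an exoribonuclease of mitochondria. It stood at 44.1, 23.5 and 37.2 TPM (35.0 ± 10.5, 1.88-fold) and was lowest in line 67 (32.7% of all genes), where most members were highest. Lrpprc and Slirp, which together bind and stabilise mitochondrial mRNAs, stood at 52.7, 59.9 and 64.2 TPM and at 86.0, 76.7 and 81.9 TPM. The highest of the list was Rexo2 (117 TPM), an oligoribonuclease, and the lowest Ptcd1 (8.38 TPM). Polrmt lies on chromosome 10 and Pnpt1 on chromosome 11, and the genes of these chromosomes stood apart from all genes by a median log2 ratio of 0.28, -0.09 and -0.18 (chromosome 10) and of 0.32, -0.18 and -0.13 (chromosome 11) in lines 66, 67 and 72. The part of these shifts in the values of both genes was not tested. Polrmt and Pnpt1 are 2 genes singled out by their fold among 3 lines, and no relation to the members was tested.

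In the other mitochondrial lists, 1 gene that averaged at least 10 TPM was over 1.5-fold apart, beside 9.79% of all 8428 genes with such a mean. A few lower genes also were, for which no share over all genes was taken. Of 13 genes of mitochondrial DNA replication and maintenance, 9 averaged at least 10 TPM and 0 were over 1.5-fold apart, with Slc25a4, the ADP/ATP carrier, highest (428 TPM), Slc25a33 lowest (4.12 TPM) and Ssbp1, the single-strand binding protein, the least even of these 9 (1.23-fold, on chromosome 6). Below that level, Primpol, a primase-polymerase, stood at 6.23, 4.76 and 7.25 TPM (1.52-fold). Of 9 regulators of mitochondrial biogenesis, 6 had such a mean and 0 were over that fold, with Gabpa (98.7 TPM), a subunit of nuclear respiratory factor 2, the highest of the list and the least even of these 6 (1.33-fold). Below that level, Ppargc1a, the coactivator PGC-1alpha and a central regulator of biogenesis, stood at 4.51, 9.96 and 8.73 TPM (961, 1896 and 1818 counts, 2.21-fold), lowest in line 66 and highest in line 67. Perm1, a muscle regulator, was the lowest of the list at 4, 11 and 7 counts. Of 17 mitochondrial tRNA synthetases, 13 had such a mean and 0 were over that fold, from Lars2 (1055 TPM) to Mars2 (3.39 TPM), and Nars2 was the least even of these 13 at 1.40-fold, while below that level Mars2 was 1.48-fold apart and Wars2 1.47-fold. Of 78 mitochondrial ribosomal protein genes, all had such a mean, from Mrps21 (245 TPM) to Mrpl1 (18.4 TPM), and 1 was over 1.5-fold apart, Mrpl55 at 50.1, 37.7 and 31.4 TPM, which lies on chromosome 11.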

How the data were processed

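RNA of 3 lines was measured by poly-A-enriched, stranded RNA-seq. The submitters' processing notes name bcl2fastq 2.20, fastp 0.20, kallisto 0.46.1 and GRCm39, with no role for each. The authors deposited, per transcript, estimated counts with no normalization and TPM values, scaled to 1000000 per library by effective length. The annotation and strand setting are not given in the sources used here. Totals were 73274315, 66972426 and 70272367 estimated counts in lines 66, 67 and 72, and limits from counts (a count of 0 allows 3) cover counting error only.

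Of 121798 transcripts, 120686 were matched to GENCODE M21 (GRCm38), and 1112 (0.493% to 0.535% of counts) were left out. TPM values and counts were summed per gene. Lines were compared over the 8428 genes that averaged at least 10 TPM, by the fold between the highest and the lowest line (threshold 1.5), and by log2(TPM + 1). Shared sequence was measured in 31-base words. The members and gene lists were chosen with earlier results of these data known. Named genes are all members, the highest and the lowest gene of each list, its least even gene among those that averaged at least 10 TPM, and Polrmt, Tfam, Lrpprc and Slirp. Cox6a2, Primpol, Ppargc1a and Wars2 were named after their values were seen. Genes of the marker lists named are defining markers, picked after their values were seen. Alternatives were counts per annotated kilobase, CPM, edgeR 4.0.16 (TMM) and DESeq2 1.42.0 (size factors) scaling, other thresholds and pseudocounts, and leaving out each line. The fold code was run on simulated counts with counting noise alone and planted changes larger than those of the members. Such a run leaves out the spread between lines and cannot check calls near 1.5-fold. R 4.3.3 and Python 3.11.15, with pandas 2.3.3, numpy 2.4.6 and matplotlib 3.10.9, were used.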

Additional observations from a re-analysis of the deposited data

Results flagged for a closer look

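One listed gene outside the members carried signal that resembles a mitochondrial gene which was not listed. Gm20594, annotated as protein-coding on chromosome 6 (chr6:79817916-79818364, GRCm38, 449 bases), had 5701, 9370 and 5097 estimated counts in lines 66, 67 and 72, far above the limit of 3 counts. Over 435 aligned bases it was 88.5% identical to mt-Rnr2, the large mitochondrial rRNA, and 10.02% of its 31-base words occur in mt-Rnr2. Its level was 579, 1043 and 558 TPM (727 ± 274, SD, n = 3), highest in line 67 and lowest in line 72, as for 9 of the 13 mitochondrial mRNAs. Whether its counts come from mt-Rnr2 RNA was not tested.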

How the results depend on the processing

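The mitochondrial share was 8.06% in TPM against 2.95% in counts, and ran from 2.79% to 3.10% with a line left out. The median member was 6130 TPM, 3866 as counts per annotated kilobase scaled to 1000000 over all genes and 2238 as CPM, with 5744 to 6705 TPM when a line was left out. Per annotated kilobase, mt-Nd6 stood at 4.10% of the heavy-strand median and the median member at 15.6 times the median nuclear subunit. In TPM, with a line left out, the same measures ran from 4.32% to 4.44% and from 22.04 to 26.1, against 4.39% and 23.4 with all lines, and the fold between mt-Atp6 and mt-Nd5 from 7.44 to 9.44. The count of members over 1.5-fold apart was 4 with TMM or DESeq2 scaling, 0 at 2-fold, 4 without line 66 and 0 without line 67 or without line 72. Over all genes the count of 825 became 2463 at a mean of at least 1 TPM, 13470 over all detected genes, and 304 to 480 with a line left out, the lowest without line 66; the lines left out here were an alternative chosen after seeing the data. The median log2 ratio of line 66 turned from -0.04 to 0.00098 with TMM scaling and to 0.24 without line 67 (-0.21 without line 72), so line 66 has no direction of its own. Those of line 67 (0.21 to 0.38) and line 72 (-0.38 to -0.24) kept their sign under all alternatives run. For these ratios, too, leaving out lines was an alternative chosen after seeing the data. Adding nuclear copies that share most of their words gave no value, since no listed nuclear gene qualified. No paired analysis was possible because all samples belong to 1 group.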
